A study of Mus musculus with 6 samples.

Results

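AMPA receptors are the glutamate-gated channels that carry most fast excitatory transmission in the brain. The 10 genes described here comprise the 4 pore-forming subunits (Gria1, Gria2, Gria3 and Gria4), 3 transmembrane AMPA receptor regulatory proteins or TARPs (Cacng2, Cacng3 and Cacng8), 2 cornichons (Cnih2 and Cnih3) and the CKAMP protein Shisa9. They were chosen by gene name from the 47729 genes in the transcript table, and their 40 annotated transcripts were chosen from its 115220. The 6 RNAseq libraries of ribosome-associated RNA were made from 2 groups of 3, Ctrl and Gsk3sKO in mPFC D2, the latter written Gsk3sKO below. All mice were adult C57BL/6 males of the D2Cre/LSL-Flag-Cas9/RiboTag line, aged 2.5 to 3 months at injection, so Ctrl and Gsk3sKO animals both carried Cas9 and the tagged ribosomal protein Rpl22. The Cre came from a bacterial artificial chromosome transgene under Drd2 control, which limits Cas9 and the tag to cells in which that transgene is or was active. Ctrl mice received AAV GFP, Gsk3sKO mice received AAV Gsk3sgRNA/GFP, and the medial prefrontal cortex (mPFC) was dissected 3 weeks later for immunoprecipitation of the tagged ribosomes. The sources used here do not say whether a library came from 1 mouse or from several, so each p-value is set by how far these libraries scatter, and that scatter may be partly technical.

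Each AMPA receptor is built from 4 pore subunits, and the presence of GluA2, the protein of Gria2, largely sets whether the channel passes calcium. Auxiliary proteins travel with the pore: TARPs bring receptors to the surface and anchor them at synapses, cornichons act in export from the endoplasmic reticulum and slow channel closing, and CKAMP proteins modulate desensitization. The transcripts of Gria1 to Gria4 carry either of a pair of mutually exclusive cassette exons, flip and flop, which encode part of the ligand-binding domain and alter desensitization. Values are FPKM (fragments per kilobase of transcript, scaled to the mapped fragments of the library), so levels of different genes can be set side by side. A gene total is the sum over the transcripts of a gene.

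The flip and flop exons of Gria2 and Gria3 are shown because the flip share of transcript FPKM, described below, did not overlap between groups. Each is 115 bases long and lies within the coding sequence, is given 5′ to 3′ on the coding strand from the GENCODE M21 transcripts of GRCm38, and has capitals where flip and flop of the same gene differ. The Gria2 flip exon lies at chr3:80690404-80690518 and the flop exon at chr3:80691320-80691434, on the minus strand. The Gria3 flip exon lies at chrX:41669501-41669615 and the flop exon at chrX:41654810-41654924, on the plus strand.
Gria2 flip: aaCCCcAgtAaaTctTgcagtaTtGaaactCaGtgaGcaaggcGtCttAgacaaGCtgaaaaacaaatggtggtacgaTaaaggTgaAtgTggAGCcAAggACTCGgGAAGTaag
Gria2 flop: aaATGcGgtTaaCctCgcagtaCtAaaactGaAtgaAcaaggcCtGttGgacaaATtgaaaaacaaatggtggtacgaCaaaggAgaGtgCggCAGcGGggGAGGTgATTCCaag
Gria3 flip: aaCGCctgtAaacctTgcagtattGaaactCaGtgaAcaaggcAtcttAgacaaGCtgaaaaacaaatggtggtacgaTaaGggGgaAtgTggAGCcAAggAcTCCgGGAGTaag
Gria3 flop: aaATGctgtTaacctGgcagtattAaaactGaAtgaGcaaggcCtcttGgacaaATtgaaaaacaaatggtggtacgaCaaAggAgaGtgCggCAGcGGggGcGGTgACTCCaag

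Flip and flop differed at 36 of the 115 bases in Gria1 and in Gria2, at 32 in Gria3 and at 31 in Gria4. Between subunits the same exon was more alike. Flip exons of different subunits were 87.8% to 92.2% identical, and flop exons were 87.8% to 94.8% identical, with the closest pair being the flop exons of Gria3 and Gria4. Each transcript was assigned to flip or flop by the residue at position 11 of the exon, which is serine in flip and asparagine in flop.

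Depth, estimated from the spacing of low FPKM values, was about 23500000 to 45200000 reads per library, and this estimate is approximate. The lowest member gene total rested on about 432 reads, for Cnih3. The short RNA Gm23935 took 12.9% to 24.9% of the summed FPKM in Ctrl and 7.8% to 13.4% in Gsk3sKO. Markers of both excitatory and inhibitory neurons were abundant. Slc17a7, the vesicular glutamate transporter of cortical excitatory neurons, lay between 192 and 273 FPKM, and Gad1 and Gad2, which make GABA, lay between 95.7 and 237 FPKM and between 42.5 and 74.0 FPKM. Drd2, the gene that defines the labelled cells, was at 1.58, 6.02 and 14.1 FPKM in Ctrl replicates 1 to 3 and at 8.32, 5.96 and 7.28 FPKM in Gsk3sKO replicates 1 to 3, and Drd1 lay between 2.83 and 4.98 FPKM in all 6 libraries. In bulk samples such as these, fewer cells of a type and less RNA per cell cannot be told apart.

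The targeted gene was examined first. The paper reported insertions and deletions in a Gsk3b exon in cultured cells, and loss of GSK3β staining in most Cas9 cells of the injected mPFC. FPKM of the RNA shows neither the edit nor the protein. Gsk3b totalled 35.6, 53.8 and 56.5 FPKM in Ctrl and 36.9, 37.0 and 33.6 FPKM in Gsk3sKO, with Ctrl replicate 1 lying among the Gsk3sKO libraries. The log2 difference was −0.40 (SE 0.19; limma, adjusted p = 0.773, and not past an unadjusted p of 0.05), and without Ctrl replicate 1 it was −0.61, past an unadjusted p of 0.05 (limma, adjusted p = 0.705). Its transcript ENSMUST00000023507 was at 33.5, 34.7 and 36.2 FPKM in Ctrl, against 24.8, 21.6 and 21.2 FPKM in Gsk3sKO, with no overlap between the groups. The log2 difference was −0.61 (SE 0.14; limma, adjusted p = 0.619), past an unadjusted p of 0.05. Its other tested transcript, ENSMUST00000114750, was at 1.85, 18.7 and 20.03 FPKM in Ctrl, against 11.9, 15.4 and 12.5 FPKM in Gsk3sKO, with overlap and a log2 difference of 0.42 (SE 0.78; limma, adjusted p = 0.949).

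Which AMPA receptor genes were most abundant on ribosomes was read from the mean gene total over all 6 libraries. Gria2 (124 FPKM) and Gria1 (114 FPKM) led, followed by Gria3 at 60.8 FPKM. Of the auxiliary genes among these 10, the most abundant were Cacng3, which encodes the TARP gamma-3, at 38.2 FPKM and Cnih2 at 32.6 FPKM. Frrs1l, from a list of other auxiliary or assembly factors described below, was higher still (70.2 to 152 FPKM over the libraries). Gria4 (24.7 FPKM), Shisa9 (21.3 FPKM), Cacng8 (20.05 FPKM), Cacng2 (15.02 FPKM) and Cnih3 (10.2 FPKM) completed the order. Each gene was then compared with its next neighbour within libraries. Gria1 exceeded Gria3, Gria3 exceeded Cacng3, Cnih2 exceeded Gria4 and Cacng2 exceeded Cnih3 in 6 of 6 libraries, which gives the smallest p that 6 libraries allow (2-sided exact sign-flip permutation test, p = 0.03125, adjusted p = 0.0703 over 9 pairs). The pairs were set by the order in the same 6 libraries, and 0 of the 9 pairs passed an adjusted p of 0.05. In the other pairs, the gene with the higher mean led in 3 to 5 of 6 libraries. Gria2 exceeded Gria1 in 3 of 6 libraries, for example, with a mean log2 difference of 0.11 ± 0.20 (SD). Another sum, over protein-coding transcripts alone, was chosen after the values were seen. In it, Gria3 lay below Cacng3 in Ctrl (37.7, 31.8 and 28.8 against 46.6, 51.2 and 31.9 FPKM). In Gsk3sKO, Gria3 lay below in replicate 1 and above in replicates 2 and 3 (20.1, 41.7 and 59.6 against 43.5, 26.6 and 29.4 FPKM). Mean Gria1 exceeded mean Gria2 in this sum (114 against 105 FPKM in Ctrl, 115 against 98.2 FPKM in Gsk3sKO).

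The main question was whether these genes differed between Gsk3sKO and Ctrl. At the level of the gene total, 1 of the 10 genes, Cacng2, passed an unadjusted p of 0.05 in limma on log2(FPKM + 1), and it was higher in Gsk3sKO. Over all 12874 gene totals tested, 6.56% passed the same threshold, 1.36% as higher and 5.2% as lower in Gsk3sKO. These directions depend on the scaling: 175 genes were higher and 669 lower as deposited, and 307 higher and 502 lower of 12851 with libraries rescaled to the median ratio. None of the 10 passed after Benjamini-Hochberg adjustment, where the adjusted p ranged from 0.708 to 0.987. The count of 1 in 10 is therefore read as near the background. The median absolute log2 difference was 0.11 over the 10 genes and 0.19 over all genes.

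**Figure D1:**
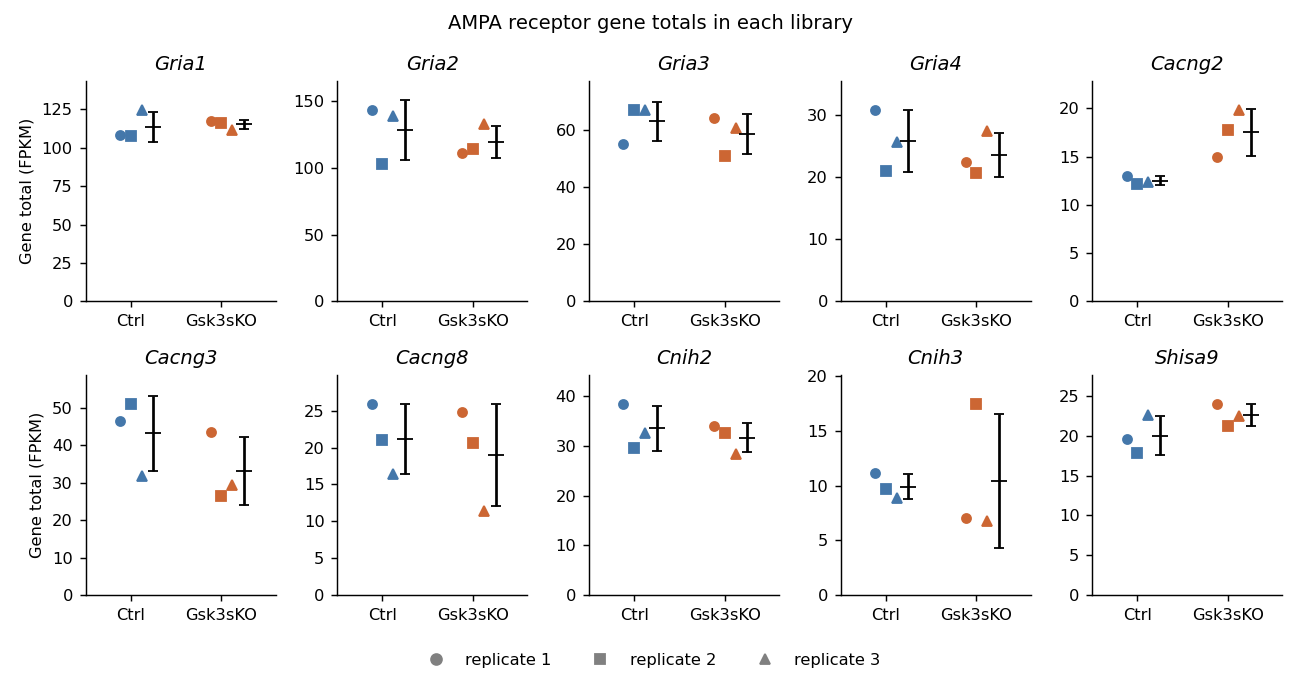
Gene total FPKM of the 10 AMPA receptor genes in each library (vertical axis from 0, 1 panel per gene), with Ctrl in blue, Gsk3sKO in orange and symbols for replicate number; black marks show the mean ± SD of 3 libraries. Only in the Cacng2 panel do the groups not overlap, with Ctrl at 12.1 to 13.03 FPKM and Gsk3sKO at 14.99 to 19.9 FPKM.

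The pore-forming subunits lay close together in Ctrl and Gsk3sKO. Gria1 (chr11:57011387-57330244), the subunit whose trafficking is most tied to plasticity, was at 108, 108 and 125 FPKM in Ctrl, against 118, 116 and 112 FPKM in Gsk3sKO. All 3 Gsk3sKO values fell within the Ctrl range, and the log2 difference was 0.02 with a 95% interval of −0.26 to 0.30 (limma, adjusted p = 0.981). Gria2 (chr3:80681450-80802835) was at 144, 103 and 139 FPKM in Ctrl, against 111, 114 and 133 FPKM in Gsk3sKO. Its log2 difference was −0.09 (95% interval −0.47 to 0.28). Gria3 (chrX:41400854-41678601) was at 55.2, 67.1 and 66.9 FPKM in Ctrl, against 64.2, 50.9 and 60.8 FPKM in Gsk3sKO, again with overlap. Its log2 difference was −0.10 (95% interval −0.45 to 0.24). Gria4 (chr9:4417896-4796234), which in cortex is most associated with inhibitory neurons, was at 30.9, 20.95 and 25.7 FPKM in Ctrl, against 22.5, 20.7 and 27.5 FPKM in Gsk3sKO. Its log2 difference was −0.12 (95% interval −0.55 to 0.31). The 4 intervals together ran from −0.55 to 0.31.

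Among the TARPs, Cacng2 was the gene in which the groups separated. Cacng2 (chr15:77991748-78120028) encodes stargazin, the prototype TARP. It was at 13.03, 12.1 and 12.3 FPKM in Ctrl, 12.5 ± 0.467 (SD, n = 3), and at 14.99, 17.8 and 19.9 FPKM in Gsk3sKO, 17.5 ± 2.44 (SD, n = 3). Every Gsk3sKO library lay above every Ctrl library, and 1 of the 10 genes thus did not overlap, beside 12% of all gene totals. The difference was 0.45 on the log2(FPKM + 1) scale, or 1.37-fold (SE 0.17, 95% interval 0.07 to 0.83; limma, adjusted p = 0.708), and the 2-sided exact permutation test gave p = 0.1, the smallest that 3 against 3 allows. The call was lost without Ctrl replicate 2, Ctrl replicate 3, Gsk3sKO replicate 2 or Gsk3sKO replicate 3 (limma, adjusted p from 0.720 to 0.973), while the log2 difference stayed between 0.36 and 0.44. Cacng2 has 1 listed transcript, ENSMUST00000019290, whose annotated exons share 323 bases with A730060N03Rik on the opposite strand, a gene with a mean of 0.601 FPKM.

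Cacng3 (chr7:122670492-122769393) was at 46.6, 51.2 and 31.9 FPKM in Ctrl, against 43.5, 26.6 and 29.4 FPKM in Gsk3sKO. The groups overlapped, since Ctrl replicate 3 lay low and Gsk3sKO replicate 1 lay high, and the log2 difference was −0.38 (SE 0.24; limma, adjusted p = 0.811). Without Ctrl replicate 3 or without Gsk3sKO replicate 1 it was −0.58 in both cases, past an unadjusted p of 0.05 (limma, adjusted p = 0.665 and adjusted p = 0.518), and leaving out Gsk3sKO replicate 2 gave −0.24. Cacng8 (chr7:3390683-3415648), the gene of the TARP gamma-8 best known from hippocampus, was at 26.0, 20.95 and 16.4 FPKM in Ctrl, against 24.9, 20.7 and 11.4 FPKM in Gsk3sKO. Its log2 difference was −0.19 (95% interval −0.85 to 0.47).

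The cornichons and Shisa9 did not separate the groups. Cnih2 (chr19:5092868-5098521) was at 38.5, 29.5 and 32.6 FPKM in Ctrl, against 33.9, 32.6 and 28.4 FPKM in Gsk3sKO. Cnih3 (chr1:181352628-181460641) was at 11.1, 9.69 and 8.85 FPKM in Ctrl, against 7.03, 17.5 and 6.80 FPKM in Gsk3sKO. Gsk3sKO replicate 2 stood above every other library for Cnih3, and the other Gsk3sKO libraries stood below all Ctrl libraries, so the log2 difference of −0.05 (95% interval −0.81 to 0.71) covers values on both sides. Shisa9 (chr16:11984113-12270902) was at 19.6, 17.8 and 22.7 FPKM in Ctrl, against 24.0, 21.3 and 22.5 FPKM in Gsk3sKO. Its log2 difference was 0.17 (95% interval −0.18 to 0.53).

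Ratios within a library, which do not depend on how libraries are scaled, were used to ask whether subunit composition differed. Gria1 made up 32.1%, 36.1% and 35.0% of the summed Gria1 to Gria4 FPKM in Ctrl and 37.3%, 38.5% and 33.5% in Gsk3sKO. Gria2 made up 42.5%, 34.4% and 39.0% in Ctrl and 35.3%, 37.8% and 39.9% in Gsk3sKO. Both shares overlapped between the groups, as did those of Gria3 (16.3% to 22.5% over all libraries) and Gria4 (6.85% to 9.14%).

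Among the 3 TARPs of this set, the Cacng3 share separated the groups. Over all libraries, the TARP genes Cacng7 (13.1 to 17.4 FPKM), Cacng4 (9.23 to 11.3 FPKM) and Cacng5 (0.463 to 2.18 FPKM) were not counted. The separation is therefore stated for Cacng2, Cacng3 and Cacng8 alone, and shares over all TARPs were not tested. Cacng3 took 54.4%, 60.7% and 52.6% of the FPKM of these 3 genes in Ctrl and 52.2%, 40.9% and 48.4% in Gsk3sKO. Each Gsk3sKO library thus lay below each Ctrl library, by a narrow margin between Ctrl replicate 3 and Gsk3sKO replicate 1. The mean difference was −8.74 percentage points (2-sided exact permutation test, p = 0.1, adjusted p = 0.55 over 11 shares and ratios), and it was −5.60 points without Gsk3sKO replicate 2. Cacng2 took 15.2%, 14.4% and 20.3% in Ctrl and 18.0%, 27.3% and 32.8% in Gsk3sKO. These overlapped through Ctrl replicate 3 and Gsk3sKO replicate 1, with a difference of 9.37 points (2-sided exact permutation test, p = 0.2, adjusted p = 0.733) that was 6.00 points without Gsk3sKO replicate 3. Relative to 100 FPKM of Gria1 to Gria4, Shisa9 stood at 5.79, 5.97 and 6.36 FPKM in Ctrl, against 7.61, 7.05 and 6.76 FPKM in Gsk3sKO. The groups did not overlap for this ratio (difference 1.10; 2-sided exact permutation test, p = 0.1, adjusted p = 0.55). The 3 TARPs per 100 FPKM of pore subunits (17.0 to 28.3 over all libraries) and cornichons per 100 FPKM (10.6 to 16.6) overlapped.

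**Figure D2:**
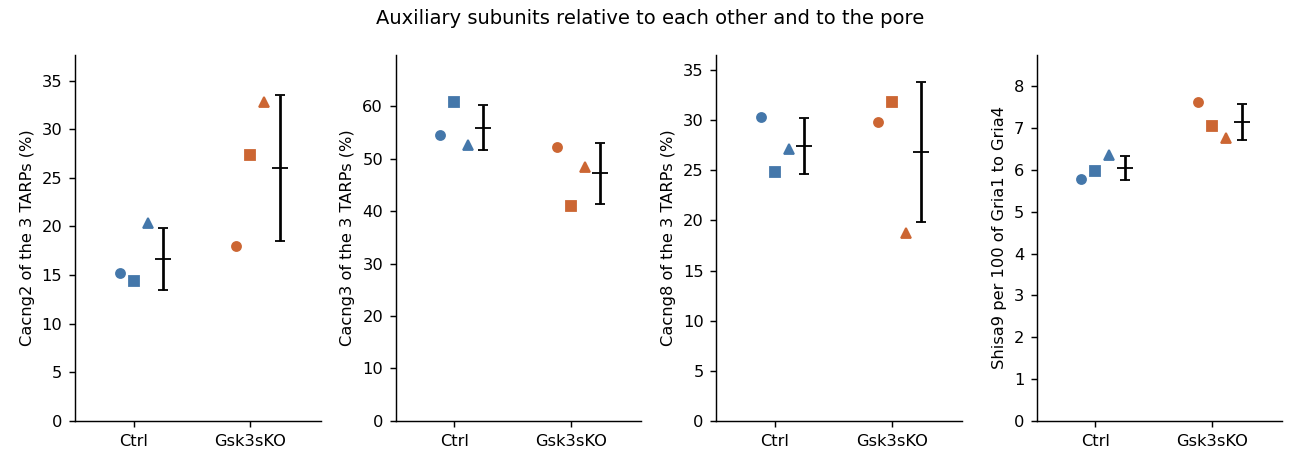
Share of Cacng2, Cacng3 and Cacng8 in their summed FPKM (percent, first 3 panels) and Shisa9 FPKM per 100 FPKM of Gria1 to Gria4 (last panel), by group. Each library is 1 point (circle, square and triangle for replicates 1 to 3), with the mean ± SD of 3 libraries in black. Groups do not overlap for the Cacng3 share (52.6% to 60.7% in Ctrl, 40.9% to 52.2% in Gsk3sKO) and for Shisa9 (5.79 to 6.36 and 6.76 to 7.61).

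Transcripts were compared next, since flip and flop forms cannot be seen in gene totals. Of the 40 member transcripts, 29 had a mean of at least 1 FPKM and were tested, and 2 of these passed an unadjusted p of 0.05 in limma, beside 5.56% of the 21584 transcripts tested in all. The Cacng2 transcript was higher in Gsk3sKO (1.81% of all transcripts passed in this direction), and the Gria3 transcript ENSMUST00000165288, a flop form, was lower (3.75% in this direction). Neither passed after adjustment (adjusted p = 0.842 and 0.818). Groups did not overlap for 3 of the 29, beside 11.2% of all transcripts, the other being the noncoding Shisa9 transcript ENSMUST00000182889. That transcript was at 3.74, 2.71 and 2.40 FPKM in Ctrl, against 2.03, 1.61 and 0.275 FPKM in Gsk3sKO (log2 difference −0.86, SE 0.46; limma, adjusted p = 0.857), and the difference was −0.47 without Gsk3sKO replicate 3. The median absolute log2 difference was 0.55 over the 29 member transcripts, beside 0.35 over all transcripts.

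**Figure D3:**
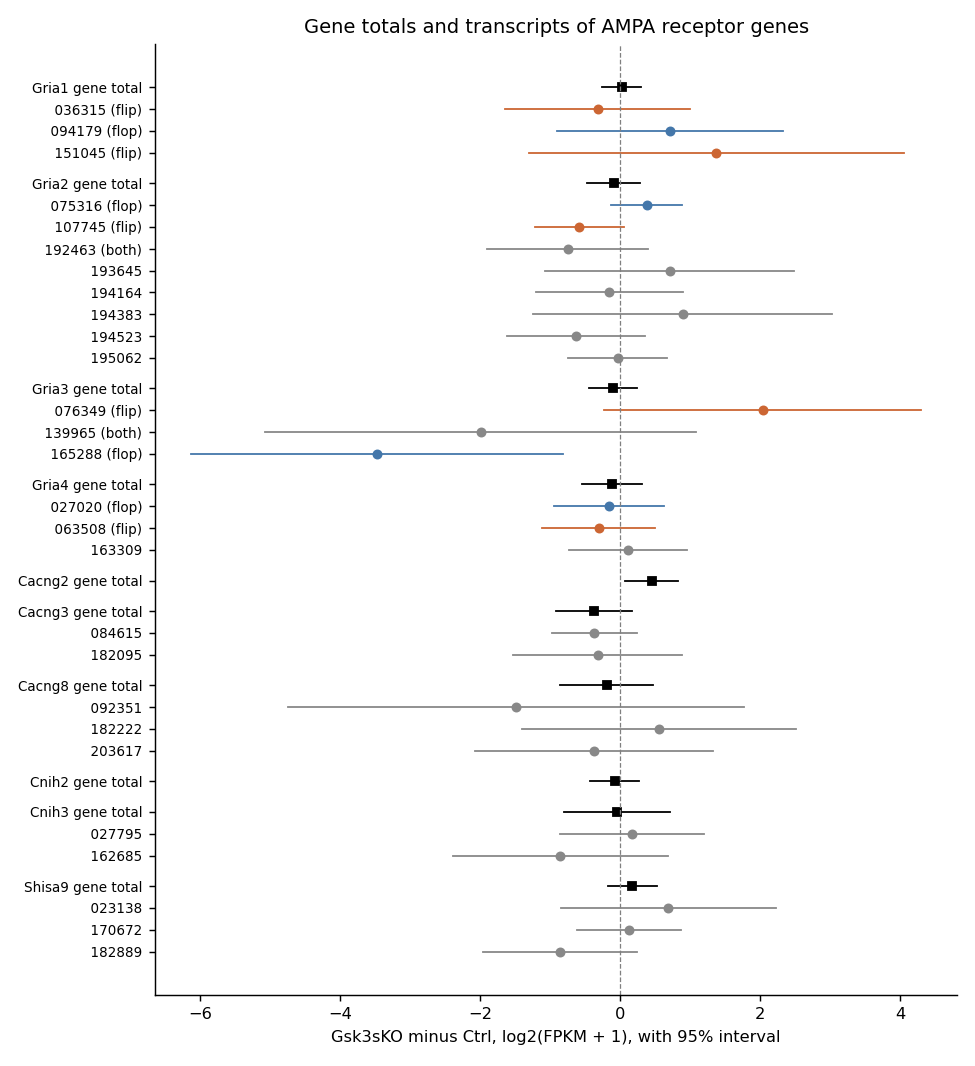
Gsk3sKO minus Ctrl difference on the log2(FPKM + 1) scale with its 95% interval from limma, for the 10 gene totals (black squares) and for transcripts of genes with more than 1 tested transcript (circles, named by the last 6 digits of the transcript identifier), with flip forms in orange, flop forms in blue and others in grey. Gene totals lie between −0.38 and 0.45, while Gria3 transcripts reach from −3.47 to 2.04.

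In Gria3 the listed isoforms differed between libraries far more than the gene total. The flop form ENSMUST00000165288 was at 32.1, 25.4 and 24.9 FPKM in Ctrl, at 15.7 FPKM in Gsk3sKO replicate 1, and was listed at 0 in Gsk3sKO replicates 2 and 3. The flip form ENSMUST00000076349 was at 5.57, 4.77 and 3.67 FPKM in Ctrl, at 3.76 FPKM in Gsk3sKO replicate 1, and at 41.6 and 59.0 FPKM in Gsk3sKO replicates 2 and 3. A transcript annotated for nonsense-mediated decay, ENSMUST00000139965, which holds both exons, was at 16.0, 34.2 and 37.1 FPKM in Ctrl, against 43.3, 6.47 and 0.0866 FPKM in Gsk3sKO. Gsk3sKO replicate 1 thus lay within Ctrl in the flip form and above Ctrl in the both-exon form. Gsk3sKO replicates 2 and 3 stood apart from the other 4 libraries in all 3 forms. Over gene totals on the log2 scale, Gsk3sKO replicate 1 had a Pearson's r of 0.934, 0.9515 and 0.965 with Ctrl replicates 1 to 3. With Gsk3sKO replicates 2 and 3 it was 0.951 and 0.935. The part of this likeness in the Gria3 values was not tested.

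With all libraries, the log2 difference was −3.47 (SE 1.10; limma, adjusted p = 0.818) for the flop form and 2.04 (SE 0.94; limma, adjusted p = 0.842) for the flip form. Without Gsk3sKO replicate 1, these were −4.82 (limma, adjusted p = 0.0319) and 3.17 (limma, adjusted p = 0.0885). That library was the Gsk3sKO library nearest Ctrl in both forms, so a wider difference without it follows from the choice. The limma adjusted p of 0.0319 was also the lowest over 469 alternative tests of the members. Leaving out any other library instead lost the call for the flop form (limma, adjusted p from 0.816 to 0.949), with log2 differences from −3.53 to −2.79. The flip form was at 1.34 without Gsk3sKO replicate 3. The flop values rest on about 1559 to 3867 estimated reads in the Ctrl libraries. Summed over protein-coding transcripts alone, an alternative chosen after the values were seen, Gria3 was at 37.7, 31.8 and 28.8 FPKM in Ctrl, against 20.1, 41.7 and 59.6 FPKM in Gsk3sKO, and the log2 difference was 0.18 in place of −0.10 for all transcripts.

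As a share of FPKM assigned to flip or flop alone, Gria3 flip was 14.8%, 15.3% and 12.7% in Ctrl and 18.9%, 100% and 100% in Gsk3sKO. The form with both exons was left out of this share. The groups did not overlap, with Gsk3sKO replicate 1 only just above Ctrl (difference 58.7 percentage points; 2-sided exact permutation test, p = 0.1, adjusted p = 0.2 over 4 genes). The Gria2 flip share was 66.7%, 48.5% and 52.9% in Ctrl and 40.0%, 48.3% and 30.9% in Gsk3sKO. These did not overlap either, by a small margin between Ctrl replicate 2 and Gsk3sKO replicate 2, and the difference, −16.3 points, had the opposite sign to that of Gria3 (2-sided exact permutation test, p = 0.1, adjusted p = 0.2). Behind this share, the Gria2 flip form ENSMUST00000107745 was at 79.8, 40.6 and 59.4 FPKM in Ctrl, against 38.7, 43.7 and 33.1 FPKM in Gsk3sKO (log2 difference −0.58, SE 0.26; limma, adjusted p = 0.842). Leaving out Ctrl replicate 1 gave −0.35, and leaving out Ctrl replicate 2 gave −0.83, where it passed an unadjusted p of 0.05 (limma, adjusted p = 0.949). The Gria2 flop form ENSMUST00000075316 was at 39.8, 43.2 and 52.8 FPKM in Ctrl, against 58.2, 46.8 and 74.0 FPKM in Gsk3sKO (log2 difference 0.38, SE 0.21; limma, adjusted p = 0.857). It was 0.21 without Gsk3sKO replicate 3, and 0.54 without Gsk3sKO replicate 2, where it passed an unadjusted p of 0.05 (limma, adjusted p = 0.903).

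Gria1 showed a split that ran across the groups. Its flip share was 84.3% and 89.3% in Ctrl replicates 1 and 3 and 84.3% in Gsk3sKO replicate 1, but 46.4% in Ctrl replicate 2 and 51.8% and 48.2% in Gsk3sKO replicates 2 and 3 (2-sided exact permutation test, p = 0.8). Most of the difference lay in ENSMUST00000036315, a flip form at 33.2 to 109 FPKM, and ENSMUST00000094179, the flop form at 13.3 to 57.7 FPKM. In Gria4, ENSMUST00000163309 holds neither exon, took 23.1% to 46.5% of the gene total over the libraries, and was left out of the share. The Gria4 flip share was 61.4%, 49.8% and 43.5% in Ctrl and 57.6%, 59.6% and 30.6% in Gsk3sKO, which overlapped in part, since Gsk3sKO replicate 3 was under the whole Ctrl range (p = 0.8 in the 2-sided exact permutation test). Cacng8 split in a like manner, although it has no flip or flop exon. ENSMUST00000092351 was at 19.2, 16.9 and 22.3 FPKM in Ctrl replicates 1 and 2 and Gsk3sKO replicate 1, and at 1.67, 0.689 and 0.123 FPKM in Ctrl replicate 3 and Gsk3sKO replicates 2 and 3, while ENSMUST00000182222 was at 2.32 to 3.62 FPKM in the first 3 of these libraries and at 10.6 to 17.5 FPKM in the others.

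**Figure D4:**
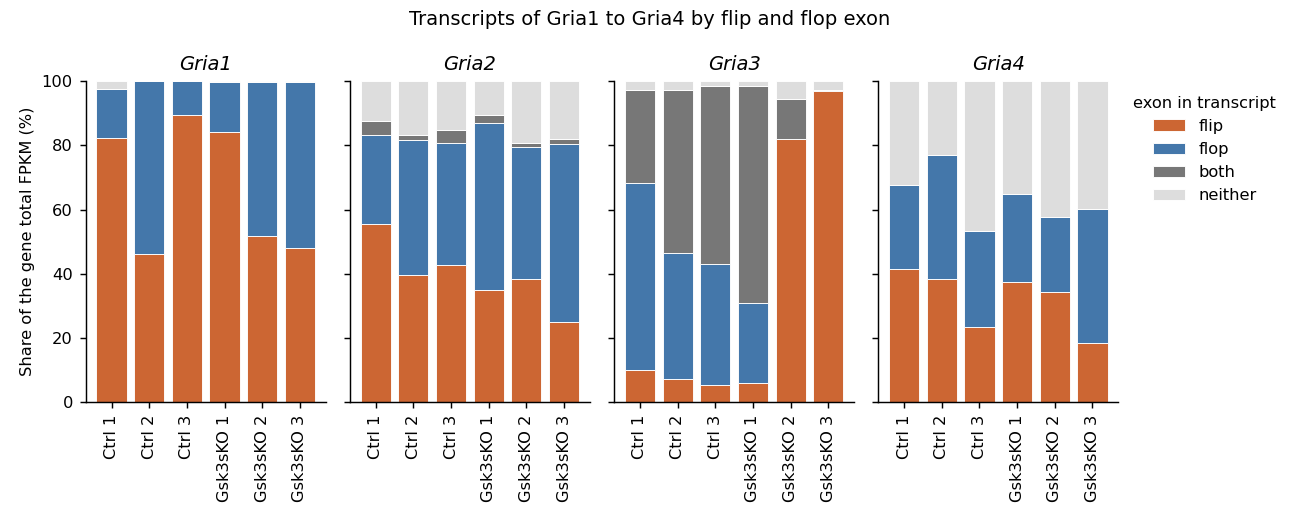
Share of each gene total (percent of FPKM) in transcripts that hold the flip exon (orange), the flop exon (blue), both (dark grey) or neither (light grey), as 1 stacked bar per library for Gria1 to Gria4. In Gria3, flip forms take 81.8% and 97.1% of the total in Gsk3sKO replicates 2 and 3 and 5.48% to 10.1% in the other 4 libraries; in Gria1 the libraries with more flop come from both groups.

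These shares depend on how reads were divided between overlapping transcripts, because the flip and flop transcripts differ in more than the cassette exon. Outside it, the main Gria3 flip transcript has 2525 bases that the flop transcript lacks, and the Gria2 flop transcript has 6345 bases that the flip transcript lacks. The corresponding differences were 147 bases in Gria1 and 95 bases in Gria4. The part of these other bases in the shares was not tested, since reads over the exons themselves were not analysed here.

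Across libraries, the 10 gene totals did not move as 1 block. Over the 45 pairs of genes, Pearson's r of log2(FPKM + 1) over 6 libraries had a median of −0.03 and ranged from −0.75 (Gria3 and Cnih3) to 0.91 (Gria2 and Gria4), and these values share library, depth and scaling. The genes whose pattern was most like the summed Gria1 to Gria4 among 11316 protein genes were Med13, Smim15 and Nfu1 (r = 0.98 each, over 6 libraries). Med13, for example, was at 15.5, 13.4 and 15.9 FPKM in Ctrl, against 14.5, 13.6 and 15.5 FPKM in Gsk3sKO, while the Gria sum was at 338, 298 and 356 FPKM and at 316, 302 and 333 FPKM.

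Genes that act with AMPA receptors were taken from 4 lists with 65 genes in all, of which 62 were tested as gene totals. At an unadjusted p of 0.05 in limma, 2 were higher and 3 lower in Gsk3sKO, or 8.06% beside the 6.56% of all genes, and 9 (14.5%) did not overlap beside 12%. None passed after adjustment, with a lowest adjusted p of 0.607.

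Among 15 tested auxiliary or assembly factors outside the 10 genes, 1 was higher and 1 lower. Frrs1l, which acts in the assembly of AMPA receptors in the endoplasmic reticulum and was the most abundant gene of this list, was at 70.2, 87.6 and 99.5 FPKM in Ctrl, against 101, 152 and 132 FPKM in Gsk3sKO. All Gsk3sKO values were above Ctrl, with Gsk3sKO replicate 1 nearest (log2 difference 0.57, SE 0.19; limma, adjusted p = 0.688). Porcn, an acyltransferase of the endoplasmic reticulum that is found with AMPA receptors and also modifies Wnt proteins, was at 9.67, 9.15 and 7.78 FPKM in Ctrl, against 6.35, 2.76 and 2.75 FPKM in Gsk3sKO. Here every Gsk3sKO library lay below Ctrl (log2 difference −1.07, SE 0.30; limma, adjusted p = 0.607).

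Of 22 trafficking and scaffold genes, 1 was lower. Ap4m1, the subunit of the AP-4 adaptor that recognises TARPs, was at 4.51, 3.46 and 3.44 FPKM in Ctrl, against 3.08, 1.52 and 1.71 FPKM in Gsk3sKO (log2 difference −0.66, SE 0.28; limma, adjusted p = 0.755). The most abundant gene of this list, the kinesin motor Kif5a, lay between 371 and 451 FPKM and overlapped between groups. Of 13 extracellular partners, 1 was lower. C1ql3, a secreted C1q-like synaptic protein, was at 103, 114.6 and 116 FPKM in Ctrl, against 97.9, 91.1 and 82.1 FPKM in Gsk3sKO (log2 difference −0.30, SE 0.13; limma, adjusted p = 0.755). Olfm1 (noelin 1), the most abundant of these partners, lay between 535 and 634 FPKM.

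Of 12 kinases, phosphatases and other regulatory enzymes, 1 was higher. Ppp3cb, a catalytic subunit of calcineurin, was at 50.9, 42.9 and 91.4 FPKM in Ctrl, against 98.8, 99.8 and 102 FPKM in Gsk3sKO (log2 difference 0.76, SE 0.25; limma, adjusted p = 0.688). Ctrl replicate 3 lay near the Gsk3sKO libraries for this gene. Camk2a, the kinase subunit that phosphorylates GluA1 and the most abundant gene of this list, lay between 482 and 656 FPKM and overlapped.

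**Figure D5:**
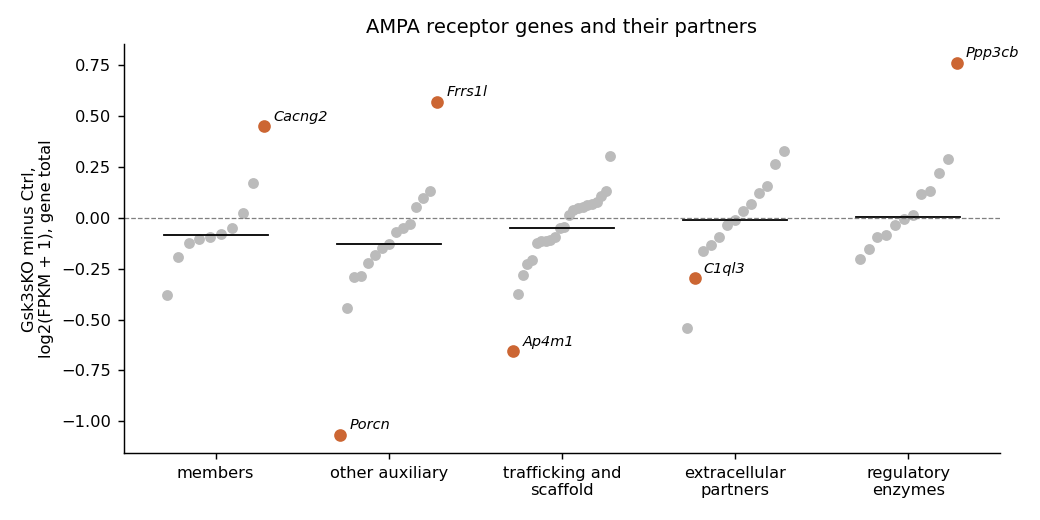
Gsk3sKO minus Ctrl difference of gene totals on the log2(FPKM + 1) scale for the 10 AMPA receptor genes and 4 lists of partner genes, with 1 point per tested gene ordered by value, the list median as a black line, and genes with an unadjusted limma p under 0.05 in orange and named. Most genes lie near 0, and the named genes reach from −1.07 (Porcn) to 0.76 (Ppp3cb).

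Markers of other cells were read beside these results, and beside the 5.2% of all gene totals that passed as lower and the 1.36% that passed as higher. Of 11 excitatory markers, 2 passed as lower in Gsk3sKO (Tbr1 and Cux2), with summed FPKM of 1085 to 1388 in Ctrl and 971 to 1101 in Gsk3sKO. None of 12 inhibitory markers passed (sums 1553 to 2017 and 1488 to 1562), none of 10 astrocyte markers (185 to 229 and 193 to 240), none of 8 endothelial markers (17.1 to 73.1 and 25.7 to 64.5), and none of 8 markers of dopaminoceptive striatal-type neurons (141 to 402 and 206 to 376). Of 8 oligodendrocyte markers, 4 passed as lower (Mog, Mag, Cldn11 and Cnp; sums 124 to 190 and 133 to 171), and Mog was listed at 0 in Gsk3sKO replicates 2 and 3. Of 10 microglia markers, 8 were tested and 2 passed as lower (C1qa and C1qb; sums over all 10 markers 42.2 to 53.9 and 31.4 to 41.3). Of 7 markers of oligodendrocyte precursors, 4 were tested and did not pass (sums over all 7 markers 10.1 to 17.8 and 9.57 to 10.02). The part of these markers in the values of the AMPA receptor genes was not tested.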

How the data were processed

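Ribosome-associated RNA from 3 Ctrl and 3 Gsk3sKO libraries was prepared with a stranded total RNA kit. The authors deposited FPKM per transcript and library, and the submitters' processing notes name HISAT2 2.1.0, SAMtools 1.9, StringTie 1.3.4d and GRCm38. For settings, annotation release and strand handling, nothing was given in the sources used here. StringTie estimates how reads divide between overlapping transcripts, so transcript values are less certain than gene totals. The deposited table also holds the authors' fold, p-value and q-value for each transcript, which were not used. Columns of other samples numbered 0.

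FPKM was summed by gene identifier. Differences were tested 2-sided with limma 3.58.1 in R 4.3.3 (lmFit, eBayes with trend, no covariates) on log2(FPKM + 1), for features with a mean of at least 1 FPKM, with Benjamini-Hochberg adjustment over all features; fold changes on this scale understate changes of low genes. The test was checked on simulated data. Shares and ratios were compared with exact permutation tests written in Python 3.11.15 with numpy 2.4.6, for which 3 against 3 cannot go below p = 0.1. Flip and flop exons came from GENCODE M21, which held 114237 of the 115220 transcripts. The step between low values of a library gave its approximate depth, although only 16.0% to 25.2% of low values per library lay within 0.01 read of a whole number.

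Named were all 10 genes, their tested transcripts, Gsk3b, partner genes with p under 0.05 or the highest level in their list, the 3 genes most like the Gria sum, and neuronal markers. Gm23935, A730060N03Rik, Cacng4, Cacng5, Cacng7 and the glial and cortical markers were picked for naming with their values already seen. The members and lists were chosen with earlier results of these data known. Alternatives covered pseudocount, filter, scaling, moderation, replicate block, protein-coding transcripts and leaving out each library. Same-numbered libraries did not deviate together (r −0.03, −0.01 and −0.08), so the numbers were not taken as pairs.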

Additional observations from a re-analysis of the deposited data

How the results depend on the processing

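A pseudocount of 0.1, no filter and a filter at 5 FPKM left every gene total, transcript and count on the same side of the threshold and with the same sign, among those that could be fitted. Of the transcripts, the filter at 5 FPKM left fewer to test. With libraries rescaled to the median ratio, all genes called were 307 higher and 502 lower in place of 175 and 669, and all transcripts were 456 and 666 in place of 390 and 810. The partner lists then held 4 calls in place of 5. The count of AMPA receptor genes stayed at 1, and 2 log2 differences near 0 changed sign, Cnih3 (0.012) and the Gria2 transcript ENSMUST00000195062 (0.0060). An ordinary linear model called 1 transcript in place of 2, losing the Gria3 flop form (adjusted p = 0.89). With the replicate number as a block, 0 gene totals and 1 transcript were called. The block lost Cacng2 as gene total (limma, adjusted p = 0.778) and as transcript (limma, adjusted p = 0.899) and changed no other call, and the libraries share only a number. Protein-coding transcripts alone turned the sign of the Gria3 gene total (0.18, an alternative chosen after the data were seen), of the Gria3 share of the pore subunits (2.40 points) and of the cornichons per 100 FPKM of pore subunits (−0.336).

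Leaving out 1 library at a time gave 0 to 2 called gene totals and 0 to 6 called transcripts, the highest counts being without Gsk3sKO replicate 1, and Gsk3b log2 differences from −0.61 to −0.28. In these fits an arm of 2 libraries shares its spread with the other arm. Signs changed for these gene totals, on the log2 scale: Gria1 (−0.014 to 0.092), Gria4 (−0.26 to 0.011), Cacng8 (−0.41 to 0.12), Cnih2 (−0.16 to 0.023, as for its transcript) and Cnih3 (−0.46 to 0.17). They changed for these transcripts: Cacng3 ENSMUST00000182095 (−0.75 to 0.054), Cacng8 ENSMUST00000203617 (−0.89 to 0.039), Cnih3 ENSMUST00000027795 (−0.29 to 0.43), Gria1 ENSMUST00000036315 (−0.84 to 0.018), Gria2 ENSMUST00000194164 (−0.36 to 0.20) and ENSMUST00000195062 (−0.21 to 0.16), Gria4 ENSMUST00000027020 (−0.47 to 0.077) and ENSMUST00000163309 (−0.23 to 0.34), and Shisa9 ENSMUST00000170672 (−0.095 to 0.35). Differences of shares, in percentage points, changed sign for Gria2 (−3.07 to 0.968), Gria3 (−2.15 to 0.936) and Gria4 (−0.803 to 0.295) of the pore subunits, Cacng8 of the TARPs (−3.13 to 3.37), Cnih2 of the cornichons (−4.30 to 4.58) and Gria4 flip (−7.46 to 7.05). Per 100 FPKM of pore subunits, TARPs went from −4.73 to 0.882 and cornichons from −1.39 to 1.62. Over the Ctrl libraries alone, 8 of the 9 neighbouring pairs kept their order of levels, with Shisa9 and Cacng8 exchanged. The causes of these changes were not tested.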
